A study of Homo sapiens with 6 samples.

Results

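The genes described here encode the proteins of tight junctions, desmosomes and cadherin contacts, the structures that hold epithelial cells to each other. They were chosen by name from the protein-coding rows of the deposited table: the numbered claudins, cadherins, desmocollins, desmogleins, plakophilins and zonula occludens proteins, plus OCLN, MARVELD2, F11R, DSP, JUP, CTNNA1, CTNNB1, CTNND1, EPCAM, CRB3 and the 4 nectins. This gave 75 genes of the 60612 rows, of which 19673 carry a protein-coding transcript. RNA came from SNU-368, a line that the labels place among hepatocellular carcinoma lines. The series text counts the 6 samples as 6 cell lines, 3 of each kind of SNU-368, so whether they are separately made lines or repeats of 1 line is not clear. In 3 libraries the cells carried shTFAM, a short hairpin RNA against TFAM, the factor that packages mitochondrial DNA and starts its transcription. In the other 3 the cells carried the control hairpin, shCtrl. The hairpin sequences, and whether the cells were pools or clones, are not given in the sources used here. Nothing states that libraries of a group came from separate cultures, so the p-values measure the spread among these 6 libraries alone, and that spread may be technical.

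Tight junctions seal the space between neighbouring epithelial cells. Claudins and occludin span the membrane there, and zonula occludens proteins tie them to actin. Below them, cadherins bind the same cadherin on the next cell through calcium, and catenins link their tails to actin, while nectins form a parallel contact. In desmosomes, desmogleins and desmocollins take the place of classical cadherins, and plakoglobin, plakophilins and desmoplakin connect them to keratin filaments. In the liver, tight junctions close off the bile canaliculi between hepatocytes.

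The libraries held 43286024 to 61058282 counts, so that a floor of 3 counts stood at 0.0491 to 0.0693 CPM, counts scaled to library size. This limit covers counting error only. TFAM was at 13.5, 12.3 and 14.8 FPKM, the deposited level scaled to gene length and depth, in shCtrl and at 10.1, 10.1 and 8.47 in shTFAM. The groups did not overlap, and the log2 fold change was -0.42 with an SE of 0.11 (edgeR adjusted p = 0.0377). This call ended when any 1 library was left out, at edgeR adjusted p from 0.0676 to 0.0948, and without the limit on level described next (0.0644), with the direction kept. Counts from mitochondrial DNA made up 10.1 to 14.2% of the shCtrl libraries and 7.91 to 10.7% of the shTFAM libraries. Of 8 hepatocyte markers, none reached the level needed for a test, and ALB, APOA1, APOB, TTR and AFP were at 0 counts in every library. The summed level of the hepatocyte markers was 0.0982 to 0.292 FPKM in shCtrl and 0.0863 to 0.309 FPKM in shTFAM. The 5 biliary markers, led by keratins of bile duct epithelium, summed to 78.6 to 144 FPKM in shCtrl and 145 to 230 FPKM in shTFAM.

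The junction genes fell into 3 classes of detection. A mean of at least 0.5 FPKM over the 6 libraries, the level required for a test, was reached by 26 genes, from 0.712 FPKM for NECTIN4 to 79.2 FPKM for CTNNA1. Another 25 had counts but stayed below that level, and 24 had no count in any library. The genes nearest the limit were NECTIN4 at 0.712 and CLDN9 at 0.761 FPKM inside it, and CDH5 at 0.417 and CLDN1 at 0.366 FPKM outside it.

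The families differed in how many members were present. All 4 nectins, all 3 catenins and 5 of the 6 desmosome plaque genes were tested. Only 5 of 24 claudins and 3 of 23 cadherins were. Among the claudins, CLDN2, CLDN3, CLDN8, CLDN16, CLDN17, CLDN19, CLDN22, CLDN25 and CLDN34 had 0 counts throughout, and among the cadherins CDH6, CDH9, CDH10, CDH11, CDH12, CDH17, CDH18, CDH19 and CDH20 did. Of the 7 desmosomal cadherins, which lie in 1 cluster at chr18:30989365-31549008 in hg38, DSG2 was expressed and the other 6 had 0 counts.

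**Figure D1:**
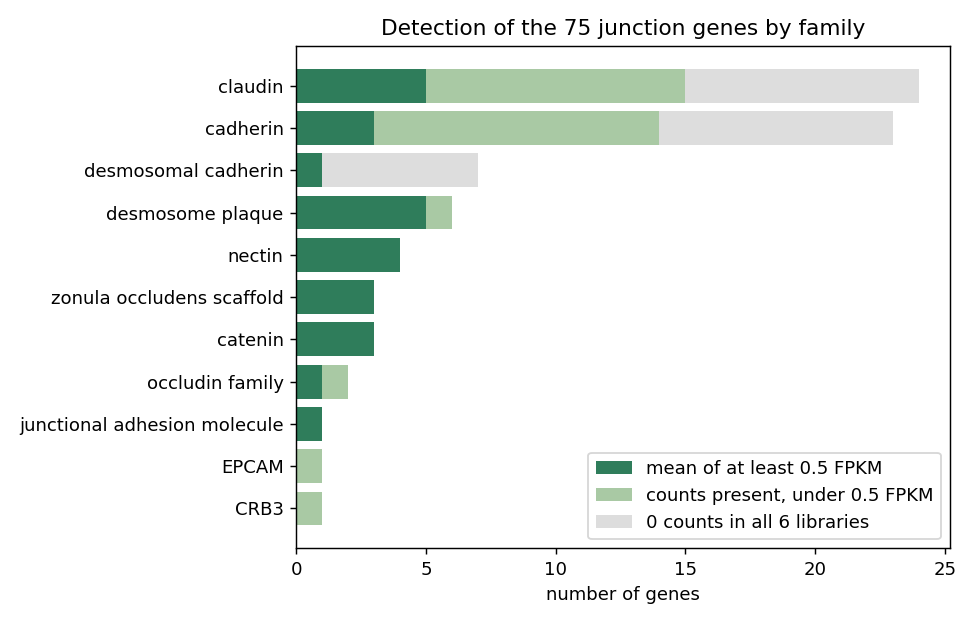
Number of genes in each junction family (horizontal axis), split into those with a mean of at least 0.5 FPKM, those with counts but a lower mean, and those with 0 counts in all 6 libraries. Claudins and cadherins are the largest families, and only 5 of 24 and 3 of 23 of them reach 0.5 FPKM, while all 4 nectins and all 3 catenins do.

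Of the 26 tested genes, 4 were higher in shTFAM (CLDN4, NECTIN1, DSP and CDH2) and 1 was lower (OCLN), at an edgeR adjusted p of at most 0.05 over all rows. This is 19.2% of the tested junction genes, beside 17.9% of the 14708 rows tested. In the upward direction the share was 15.4%, beside 11.3% of all rows, and in the downward direction 3.85%, beside 6.59%. These shares are near those of all rows. The median log2 fold change was 0.32 over the tested junction genes and -0.02 over all rows. With totals outside mitochondrial DNA as the scale these medians were 0.18 and -0.15. Positive values were found for 22 of the 26, beside 7154 of all 14708 rows. Those of CDH3, CTNNA1, CTNND1, PKP3 and PKP4 turned negative with totals outside mitochondrial DNA as the scale. In CPM the groups did not overlap for 11 of the 26, or 42.3%, and the share over all rows was 42.2%. A gene that passes the limit only through the group where it is high has to differ, so these figures describe the tested genes and not the 75. OCLN, the gene called lower, is such a gene, at means of 1.41 FPKM in shCtrl and 0.307 FPKM in shTFAM. The 21 that did not pass had log2 fold changes from -0.08 to 0.83 and edgeR adjusted p from 0.0600 to 0.957.

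**Figure D2:**
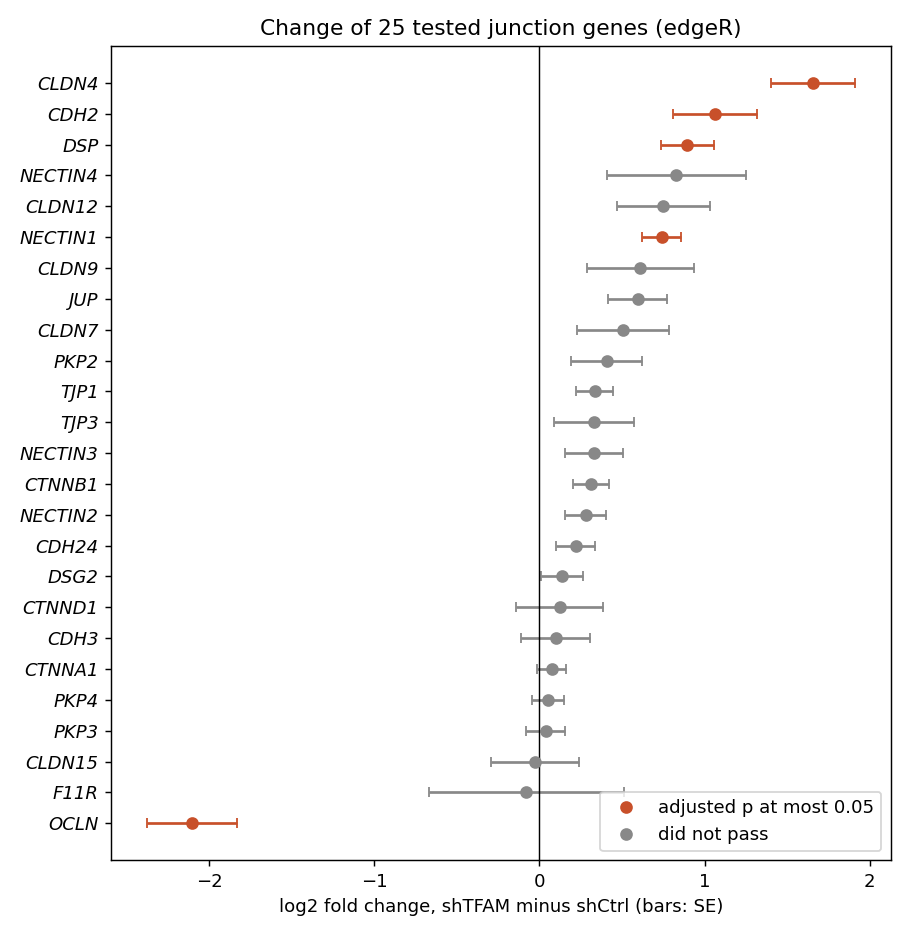
Log2 fold change of shTFAM minus shCtrl (horizontal axis) for 25 of the 26 tested junction genes, with bars of 1 SE from edgeR and coloured points for an adjusted p of at most 0.05. OCLN lies at -2.10 and the other 4 coloured genes between 0.74 and 1.66, while F11R has the wide bar of a gene whose libraries disagreed, an SE of 0.59.

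Of the genes for tight junction membrane proteins, OCLN fell and CLDN4 rose. OCLN encodes occludin, a protein with several membrane passes at the sealing strand (ENSG00000197822, chr5:69492292-69558104, plus strand, hg38). It measured 1.71, 1.38 and 1.13 FPKM in the shCtrl libraries and 0.269, 0.249 and 0.403 FPKM in the shTFAM libraries. Every shTFAM library lay well below every shCtrl library. The group means were 1.41 ± 0.292 and 0.307 ± 0.0836 FPKM (SD, n = 3 each), a level 4.60 times as high in shCtrl, and the log2 fold change was -2.10 with an SE of 0.28 (edgeR adjusted p = 0.00477). A row named as a copy of OCLN, OCLNP1, lies at chr5:71074225-71093193, and whether the 2 rows share reads was not tested. OCLNP1 had 33, 39 and 36 counts in shCtrl and 36, 47 and 11 in shTFAM. MARVELD2, which encodes tricellulin, the relative of occludin found where cells meet in corners, lies beside OCLN. It had 8, 4 and 12 counts in shCtrl and 0, 16 and 0 in shTFAM, too few for a comparison.

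CLDN4 encodes claudin-4, a sealing claudin (ENSG00000189143, chr7:73799542-73832684, plus strand). It stood at 1.23, 0.722 and 1.31 FPKM in shCtrl and at 2.84, 3.22 and 3.67 FPKM in shTFAM. The lowest shTFAM library was above the highest shCtrl library. The means were 1.09 ± 0.320 and 3.24 ± 0.418 FPKM (SD, n = 3 each), and the log2 fold change was 1.66 with an SE of 0.25 (edgeR adjusted p = 0.00797). Its neighbour CLDN3 had 0 counts in all 6 libraries.

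CLDN7 was the most abundant claudin. Its level was 17.8, 19.2 and 9.39 FPKM in shCtrl and 20.1, 17.6 and 24.6 FPKM in shTFAM. The groups overlapped, with shCtrl 3 standing low (log2 fold change 0.51, edgeR adjusted p = 0.243). CLDN9, CLDN12 and CLDN15, the other tested claudins, had log2 fold changes of 0.61, 0.75 and -0.03 and did not pass (edgeR adjusted p = 0.226, 0.109 and 0.957). The groups of CLDN12 did not overlap, and it passed with DESeq2 (adjusted p = 0.0392). CLDN12 shares its position with other gene rows, and counts may be split among them. CLDN1, a claudin widespread in epithelia, was below the limit at 0.440, 0.533 and 0.0487 FPKM in shCtrl and 0.316, 0.267 and 0.588 FPKM in shTFAM, with overlapping groups. CLDN7 took 48.2 to 75.1% of the summed claudin FPKM of a shCtrl library and 60.0 to 65.4% of that of a shTFAM library.

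**Figure D3:**
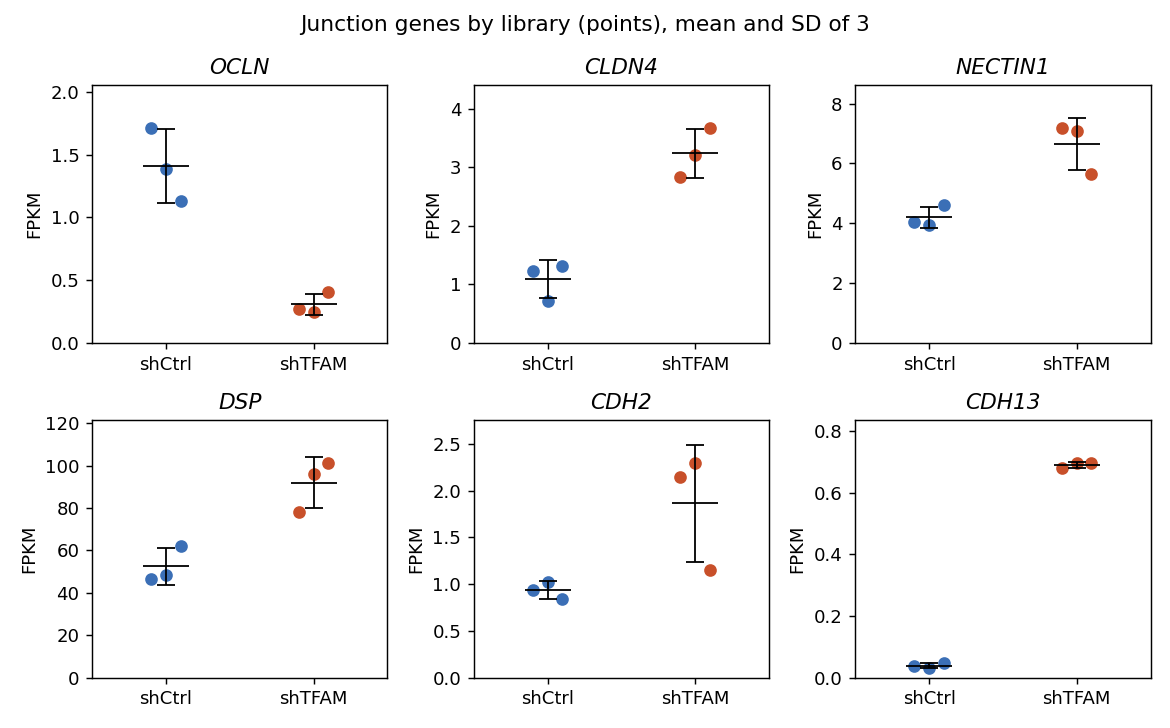
FPKM (vertical axes, each starting at 0) in each of 3 shCtrl and 3 shTFAM libraries, with bars for the mean and SD. OCLN falls from a mean of 1.41 to 0.307 FPKM, while CLDN4, NECTIN1, DSP, CDH2 and CDH13 lie higher in every shTFAM library than in any shCtrl library.

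F11R encodes junctional adhesion molecule A, an immunoglobulin-like protein of the tight junction. It was at 27.7, 7.51 and 25.3 FPKM in shCtrl and at 32.9, 9.15 and 12.3 FPKM in shTFAM. Both groups held a high and a low library, with the highest 3.69 times the lowest in shCtrl and 3.60 times in shTFAM. The log2 fold change of -0.08 had an SE of 0.59 (edgeR adjusted p = 0.943), so a change of moderate size could not be detected. CRB3, a small apical polarity protein, was low at 0.240, 0.213 and 0.104 FPKM in shCtrl and 0.0399, 0.148 and 0.191 FPKM in shTFAM, and the groups overlapped.

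The scaffold genes TJP1 and TJP3, whose products lie under the tight junction, did not pass the test. TJP1, which encodes ZO-1, was at 6.48, 7.08 and 7.92 FPKM in shCtrl and 9.15, 8.96 and 7.52 FPKM in shTFAM. The shTFAM 3 library lay within the shCtrl range in FPKM, and the log2 fold change of 0.33 had an SE of 0.11 (edgeR adjusted p = 0.0798). TJP3, which encodes ZO-3, was at 6.07, 5.61 and 3.81 FPKM against 5.00, 5.62 and 7.71 FPKM, with overlapping groups (0.33, edgeR adjusted p = 0.371). Without shCtrl 3 and shTFAM 3, TJP1 passed at an edgeR adjusted p of 0.0345.

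Among the nectins, immunoglobulin-like adhesion proteins bound to afadin inside the cell, NECTIN1 rose (ENSG00000110400, chr11:119623408-119728553, minus strand). It was at 4.06, 3.93 and 4.60 FPKM in shCtrl and 7.19, 7.09 and 5.63 FPKM in shTFAM. The groups were apart, with shTFAM 3 nearest to shCtrl. Means were 4.19 ± 0.354 and 6.64 ± 0.872 FPKM (SD, n = 3 each), and the log2 fold change was 0.74 with an SE of 0.12 (edgeR adjusted p = 0.00901). NECTIN2, the most abundant nectin in shCtrl, was at 5.36, 5.78 and 6.38 FPKM against 7.43, 6.91 and 5.79 FPKM, with overlap (0.28, edgeR adjusted p = 0.161). NECTIN3 and NECTIN4 had log2 fold changes of 0.33 and 0.83 and did not pass (edgeR adjusted p = 0.229 and 0.206).

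The cadherins were led by genes other than CDH1, the gene of E-cadherin. CDH24 was the most abundant, at 9.49, 8.29 and 7.68 FPKM in shCtrl and 8.84, 9.50 and 9.66 FPKM in shTFAM, with overlap (log2 fold change 0.22, edgeR adjusted p = 0.233). CDH3, which encodes P-cadherin, was next at 6.18, 7.95 and 5.45 FPKM against 5.35, 6.41 and 7.98 FPKM, also with overlap (0.10, edgeR adjusted p = 0.777). CDH24 was above CDH3 in each of the 6 libraries.

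CDH2 encodes N-cadherin, present in hepatocytes and in mesenchymal and neural cells (ENSG00000170558, chr18:27932879-28177946, minus strand). It was at 0.940, 1.03 and 0.839 FPKM in shCtrl and 2.14, 2.30 and 1.15 FPKM in shTFAM. The groups did not overlap, but shTFAM 3 stood close to shCtrl. Means were 0.936 ± 0.0940 and 1.86 ± 0.625 FPKM (SD, n = 3 each), and the log2 fold change was 1.06 with an SE of 0.26 (edgeR adjusted p = 0.0320). Leaving out shCtrl 1, shCtrl 2, shCtrl 3, shTFAM 1 or shTFAM 2 ended this call, at edgeR adjusted p from 0.0700 to 0.0905. It also ended with counts scaled to totals outside mitochondrial DNA (0.0511) and with limma (0.0767 and 0.0734).

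CDH1, which encodes E-cadherin, was under the limit in both groups. It lies next to CDH3 on chromosome 16 (chr16:68636189-68835537 for the pair) and was at 0.155, 0.332 and 0.473 FPKM in shCtrl and 0.146, 0.221 and 0.193 FPKM in shTFAM. The groups overlapped, and without the FPKM limit the log2 fold change was -0.70 (edgeR adjusted p = 0.385). The ratio of CDH2 to CDH1 FPKM was 6.05, 3.10 and 1.77 in shCtrl and 14.6, 10.4 and 5.96 in shTFAM. The ranges of the ratio overlapped, and the log2 ratio differed by 1.59 (two-sided exact permutation test, p = 0.2; the smallest p for 3 against 3 is 0.1).

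CDH13, which encodes T-cadherin, a cadherin anchored to the membrane by a lipid and without a tail for catenins, was below the limit as a mean and was named after its values were seen (ENSG00000140945, chr16:82626965-83800640). It had 22, 22 and 31 counts in shCtrl and 415, 421 and 562 counts in shTFAM, or 0.0376, 0.0300 and 0.0465 FPKM against 0.679, 0.697 and 0.695 FPKM. The 3 shTFAM libraries were nearly level and far above the shCtrl libraries, by a ratio of mean FPKM of 18.2. Without the FPKM limit, where 6.90% of 30158 rows were called, the log2 fold change was 4.17 with an SE of 0.24 (edgeR adjusted p = 0.000367). When 1 library at a time was left out, it ranged from 4.05 to 4.35, an alternative added after the data were seen. EPCAM, an epithelial adhesion molecule, had 22, 12 and 10 counts in shCtrl and 8, 8 and 4 in shTFAM, with a log2 fold change of -1.14 that did not pass without the limit (edgeR adjusted p = 0.419). Its lowest shCtrl library was above its highest shTFAM library in counts.

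**Figure D4:**
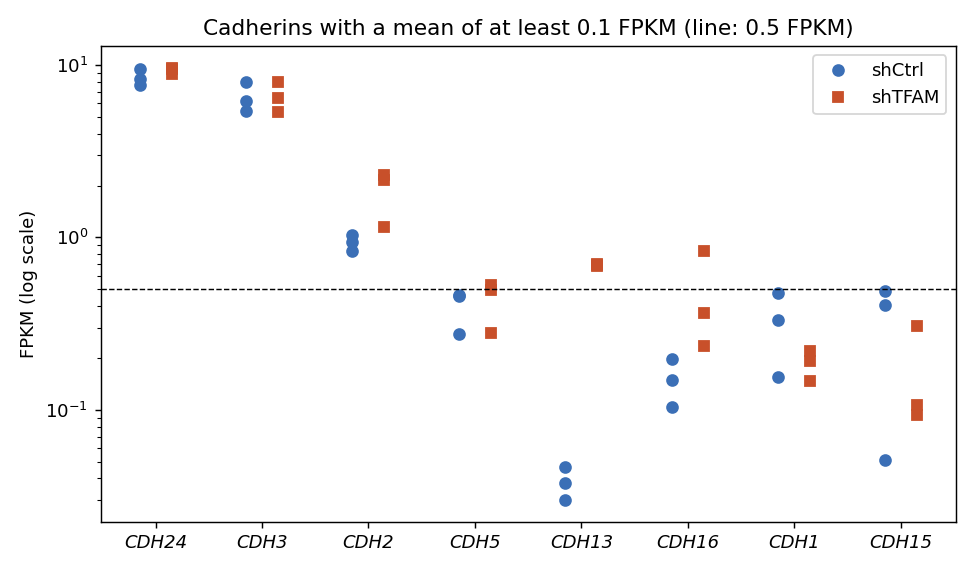
FPKM on a log scale (vertical axis) of the 8 cadherins with a mean of at least 0.1 FPKM, for 3 shCtrl (circles) and 3 shTFAM (squares) libraries, with a dashed line at 0.5 FPKM. CDH13 moves from 0.0300 to 0.0465 FPKM in shCtrl to 0.679 to 0.697 FPKM in shTFAM, and CDH1 stays below the line in all 6 libraries.

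The catenins, which link cadherins to actin, were abundant, and none of the 3 passed the test. CTNNA1 was at 79.8, 81.3 and 77.1 FPKM in shCtrl and 78.2, 78.0 and 80.6 FPKM in shTFAM, with a log2 fold change of 0.07 (edgeR adjusted p = 0.596). Its groups overlapped and its sign depended on the scaling. CTNNB1, which encodes beta-catenin, had a log2 fold change of 0.31 with an SE of 0.11 (edgeR adjusted p = 0.0872), from 14.5, 13.7 and 17.0 FPKM in shCtrl and 16.8, 18.0 and 18.2 FPKM in shTFAM. In FPKM, shCtrl 3 lay above shTFAM 1, and without shCtrl 3 the gene passed (edgeR adjusted p = 0.0395). CTNND1, which encodes p120-catenin, was at 12.5, 18.4 and 18.3 FPKM against 11.1, 21.2 and 18.3 FPKM, with overlap (0.12, edgeR adjusted p = 0.781). A readthrough row overlaps it on the same strand. With both rows summed it was at 204 ± 38.0 CPM in shCtrl and 223 ± 47.5 CPM in shTFAM (SD, n = 3 each).

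The desmosome was represented by 1 cadherin and its plaque. DSG2, which encodes desmoglein-2, was at 15.1, 17.3 and 19.7 FPKM in shCtrl and 16.6, 18.5 and 19.0 FPKM in shTFAM, with overlapping groups and a log2 fold change of 0.14 (edgeR adjusted p = 0.484). DSP encodes desmoplakin, which binds keratin filaments (ENSG00000096696, chr6:7541617-7586714, plus strand). It was at 46.6, 48.4 and 62.3 FPKM in shCtrl and 78.3, 95.9 and 101 FPKM in shTFAM. The shTFAM libraries were all above the shCtrl libraries, the highest of which was shCtrl 3. Means were 52.4 ± 8.57 and 91.8 ± 12.0 FPKM (SD, n = 3 each), and the log2 fold change was 0.90 with an SE of 0.16 (edgeR adjusted p = 0.0132). Without shCtrl 2 the edgeR adjusted p was 0.0519.

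JUP, which encodes plakoglobin, the catenin shared by desmosomes and adherens junctions, was at 43.2, 35.9 and 32.7 FPKM in shCtrl and 67.8, 43.4 and 48.8 FPKM in shTFAM. The groups were apart by a narrow margin between shCtrl 1 and shTFAM 2, and the log2 fold change was 0.60 with an SE of 0.18 (edgeR adjusted p = 0.0600, DESeq2 adjusted p = 0.0151). PKP3 was at 24.4, 21.3 and 22.9 FPKM against 21.9, 20.0 and 24.4 FPKM (0.04, edgeR adjusted p = 0.852). PKP4 was at 7.03, 6.55 and 7.00 FPKM against 6.69, 7.36 and 6.15 FPKM (0.05, edgeR adjusted p = 0.732). For these plakophilins, armadillo proteins of the plaque, the groups overlapped and the sign depended on the scaling. PKP2 had a log2 fold change of 0.41 (edgeR adjusted p = 0.224). Summed over the 6 plaque genes, the level was 125, 116 and 129 FPKM in shCtrl and 178, 171 and 187 FPKM in shTFAM, with no test since the genes were chosen with results known.

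**Figure D5:**
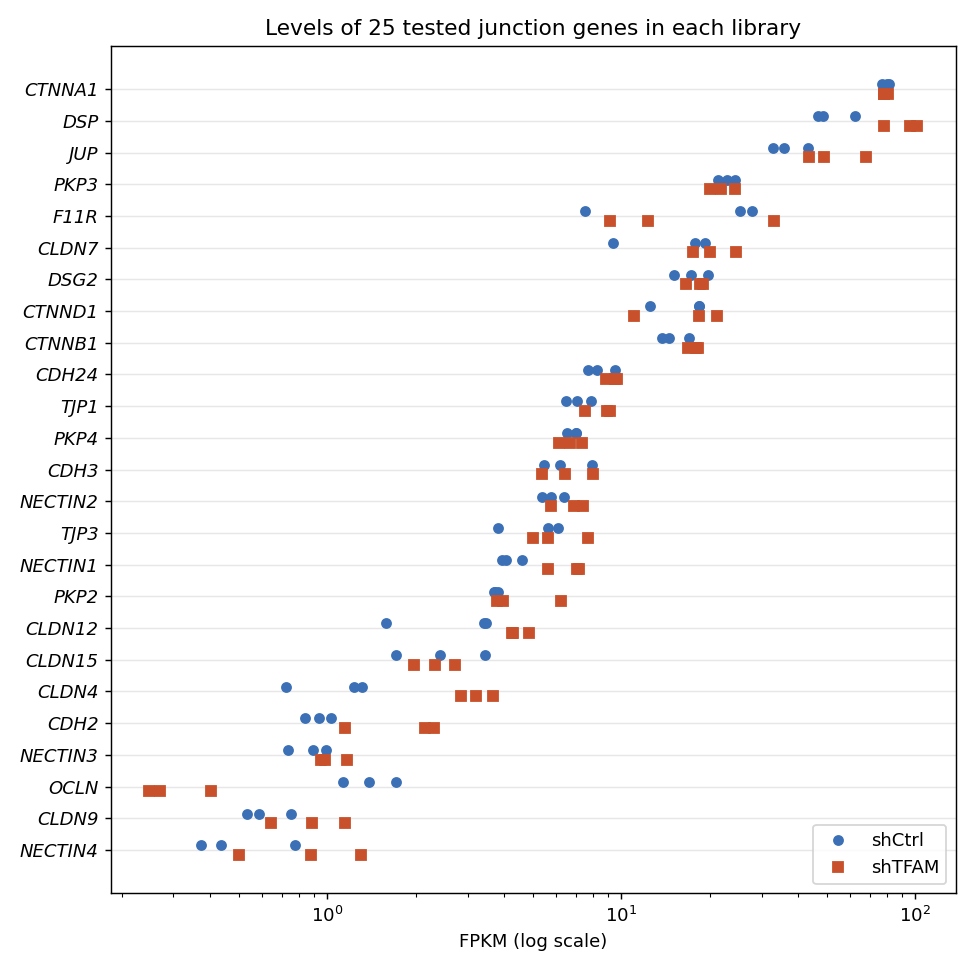
FPKM on a log scale (horizontal axis) of 25 of the 26 tested junction genes, ordered by mean, for 3 shCtrl (circles) and 3 shTFAM (squares) libraries. CTNNA1 is highest at a mean of 79.2 FPKM and NECTIN4 lowest at 0.712 FPKM, and F11R spreads widely within both groups.

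Other proteins of these junctions were read from a list of 52 partner genes. Of 33 tested, 5 were higher in shTFAM (15.2%, beside 11.3% of all rows) and 2 lower (6.06%, beside 6.59%), and 26 did not pass, with a median log2 fold change of 0.13. PPL, which encodes periplakin, a relative of desmoplakin, was at 4.07, 3.63 and 4.04 FPKM in shCtrl and 13.6, 18.0 and 31.2 FPKM in shTFAM. The groups were far apart, with a wide spread within shTFAM (log2 fold change 2.52, SE 0.31, edgeR adjusted p = 0.00420). PERP, a membrane protein of desmosomes, was at 31.0, 29.9 and 36.0 FPKM against 46.8, 47.6 and 45.2 FPKM (0.61, edgeR adjusted p = 0.00884).

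At the actin side, VCL, which encodes vinculin, was at 32.2, 33.1 and 31.2 FPKM in shCtrl and 51.3, 44.8 and 53.1 FPKM in shTFAM (0.71, edgeR adjusted p = 0.00705). ARHGEF18, a guanine nucleotide exchange factor found at junctions, was at 9.26, 9.999 and 10.8 FPKM against 16.5, 16.4 and 19.0 FPKM (0.87, edgeR adjusted p = 0.00525). Neither gene had overlapping groups. PLEKHA7, which joins p120-catenin to microtubules, was the other gene that rose (0.51, edgeR adjusted p = 0.0436). Its call ended when any 1 library was left out (edgeR adjusted p from 0.0514 to 0.136) and without the FPKM limit (0.0807). SCRIB, a polarity scaffold, fell from 16.6, 15.0 and 16.7 FPKM to 11.9, 10.95 and 11.04 FPKM (-0.43, edgeR adjusted p = 0.0192). YBX3, a nucleic acid binding protein that associates with ZO-1, fell from 32.1, 34.1 and 32.4 FPKM to 23.7, 24.7 and 23.3 FPKM (-0.38, edgeR adjusted p = 0.0239). The groups did not overlap for either, but the count of genes that fell was 0 without shCtrl 1, without shCtrl 2 or without shTFAM 2, and 1 without shTFAM 1 or shTFAM 3.

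Regulators known to repress junction genes or to promote the epithelial state, transcription factors with the splicing factors ESRP1 and ESRP2, were read from a list of 23. Of 11 tested, 7 were higher in shTFAM (63.6%, beside 11.3% of all rows), with a median log2 fold change of 0.77. None was lower with edgeR, at an unadjusted p under 0.05 or with DESeq2, and 4 did not pass. The repressors SNAI2, SNAI1, FOXC2 and TWIST2 were among the 7, and so were KLF5, GRHL1 and ELF3, factors of epithelial cells. SNAI2, which encodes Slug, was at 0.979, 1.10 and 1.25 FPKM in shCtrl and 5.40, 6.16 and 7.55 FPKM in shTFAM (2.60, SE 0.20, edgeR adjusted p = 0.00142). SNAI1, which encodes Snail, was at 22.9, 21.4 and 14.1 FPKM against 41.2, 39.8 and 47.2 FPKM (1.22, edgeR adjusted p = 0.00939). KLF5 was at 15.7, 14.8 and 12.0 FPKM against 41.5, 41.9 and 50.1 FPKM (1.74, edgeR adjusted p = 0.00191).

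Each of these 3 factors had every shTFAM library above every shCtrl library. FOXC2 and ELF3 had log2 fold changes of 0.93 and 0.76 (edgeR adjusted p = 0.00946 and 0.0465), and TWIST2 and GRHL1 of 0.77 and 0.96 (0.0315 and 0.0413). TWIST2 and GRHL1 did not pass when any 1 library was left out, and ELF3 passed then only without shTFAM 1 (edgeR adjusted p = 0.0207), so the count of higher factors was 4 or 5. ELF3, TWIST2 and GRHL1 also did not pass without the FPKM limit (edgeR adjusted p = 0.0660, 0.0551 and 0.0581). ZEB1 did not pass (0.22, edgeR adjusted p = 0.451), and GRHL2, which sustains junction genes in many epithelia, had 0 counts in every library. Without the FPKM limit, where 6.90% of 30158 rows were called in either direction, 5 genes of the list were higher in shTFAM and 1 was lower. The 2 of these that lay below the limit were named after their values were seen. ZEB2, a repressor, was at 0.249, 0.222 and 0.227 FPKM in shCtrl and 0.498, 0.620 and 0.515 FPKM in shTFAM, with groups apart (1.29, edgeR adjusted p = 0.00429). ESRP2 was low in both groups, with 29, 54 and 39 counts in shCtrl and 4, 7 and 4 in shTFAM (-2.99, edgeR adjusted p = 0.0213).

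SNAI and ZEB factors are known to bind the E-box CAGGTG, and its occurrence before the start sites was counted in RefSeq sequences of build GRCh38.p14, on either strand (CACCTG on the other). Of the 75 genes, 51 had a promoter there, with 81 windows of 250 bases. NECTIN1, CDH1, CDH13 and EPCAM were among the genes without one. The motif was in 17 of the 81 windows (21.0%), beside 17.5% of 35116 windows of all genes. Windows of tested junction genes held it in 9 of 29 cases (31.0%). Counted by gene, with any window enough, 31.4% of the 51 junction genes held it, beside 20.6% of all genes. Among the 17 tested junction genes with a promoter the share was 47.1%. Genes with more windows have more chances to hold the motif, and these shares were not tested. The looser pattern CANNTG, which includes CAGGTG, was in 55.6% of the windows of junction genes and 61.8% of all windows. The sequences below are 30 bases around the motif in OCLN, which fell, in DSP, which rose, and in TJP1 and JUP, which did not pass. They are printed on the gene's strand with the E-box, read on either strand, in capitals.
OCLN, chr5:69492502-69492531: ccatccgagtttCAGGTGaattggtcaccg
OCLN, chr5:69492645-69492674: tctaggacgcagCAGGTGggactcgcggcg
DSP, chr6:7541481-7541510: gggcggcgggcgCAGGTGgggaggggcggc
DSP, chr6:7541574-7541603: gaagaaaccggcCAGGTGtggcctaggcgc
TJP1, chr15:29969120-29969149: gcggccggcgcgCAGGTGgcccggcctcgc
JUP, chr17:41786002-41786031: cCACCTGccgagCAGGTGagcgcacggagt
The OCLN motifs lay 33 and 133 bases before 2 RefSeq starts, the DSP motifs 178 and 85 bases before its start, the TJP1 motif 88 bases before, and the JUP motifs 54 and 43 bases before. The 30 bases around both OCLN motifs, the nearer DSP motif and both JUP motifs overlap exons annotated as UTR in GENCODE 29. Those around the others lie upstream. Among the genes printed, the motif lay before a gene that fell, a gene that rose and genes that did not pass. Its part in these changes was not tested. The windows of CLDN4 held no CANNTG and those of CDH2 no CAGGTG.

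Markers of other cell types moved with the groups in part. Of 6 fibroblast markers, 4 were tested, and PDGFRB and DCN were higher in shTFAM (11.3% of all rows were). Their log2 fold changes were 1.69 and 2.95. DCN passed the limit on level only through shTFAM, at means of 0.201 FPKM in shCtrl and 1.48 FPKM in shTFAM. COL3A1, below the limit and named after its values were seen, had 18, 11 and 16 counts in shCtrl and 263, 257 and 172 in shTFAM. Without the limit, where 6.90% of rows were called, COL3A1 passed (log2 fold change 3.92, edgeR adjusted p = 0.00254). COL1A1, the most abundant, was at 34.9, 32.0 and 21.3 FPKM in shCtrl and 27.9, 27.9 and 32.7 FPKM in shTFAM, with overlap (0.09, edgeR adjusted p = 0.779). The summed level was 24.5 to 37.5 FPKM in shCtrl and 37.3 to 40.8 FPKM in shTFAM, with COL1A2 at 0. Among leukocyte markers, CD68, a lysosomal protein abundant in macrophages, was at 4.13, 5.996 and 6.35 FPKM in shCtrl and 12.2, 12.5 and 17.1 FPKM in shTFAM (log2 fold change 1.43, edgeR adjusted p = 0.00892), while PTPRC, CD3E and LYZ were at 0. The 5 endothelial markers, which include CDH5, summed to 0.386 to 0.531 FPKM in shCtrl and 0.444 to 0.700 FPKM in shTFAM, with KDR at 0. Squamous markers summed to 65.0 to 82.5 and 77.8 to 88.7 FPKM, nearly all of it from SFN, the only one tested. SFN was at 68.6, 64.8 and 82.3 FPKM in shCtrl and 85.5, 88.3 and 77.1 FPKM in shTFAM. KRT5, KRT14 and TP63 had means of 0.0118, 0.232 and 0.0705 FPKM over all libraries, and KRT6A was at 0. The part of such genes in the values of CDH2, CDH13 and SNAI2, which fibroblasts also express, was not tested. In bulk samples, fewer cells of a type and less RNA per cell cannot be told apart.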

How the data were processed

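Poly(A) RNA libraries that mark strand with dUTP were sequenced from 3 shCtrl and 3 shTFAM samples, per the labels' protocols. Tools in the submitters' processing notes are HISAT2 2.0.4, StringTie 1.3.4d, cutadapt 1.9 and Bowtie 0.12.2, and builds are hg38 and mm8, with no roles. The sources used here do not state the counting tool, its annotation or its use of strand. For each gene the authors deposited whole-number counts and FPKM, per the file headers. Coordinates are as deposited, and 62 of the 75 genes lie within 1000 bases of GENCODE 29.

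Groups came from the treatment label. Counts were tested with edgeR 4.0.16 in R 4.3.3 (quasi-likelihood, TMM factors 0.951 to 1.04, two-sided), on 14708 rows (mean FPKM over all libraries of 0.5 or more), with Benjamini-Hochberg adjustment over these rows and a threshold of 0.05. Each SE was taken from the fold change and the F statistic (absolute log2 value over the square root of F). The common biological coefficient of variation was 0.251. Alternatives used DESeq2 1.42.0, limma 3.58.1 on log2(FPKM + 1) and log2(FPKM + 0.1), other filters and scalings, and left-out libraries. In counts simulated from the 14708 rows for this comparison, with 200 changed, 8.96% of changes of 0.5 log2, 53.7% of 1 and 86.4% of 2 were recovered, and 0.0482% of unchanged genes were called. In the data 2630 rows were called, and the simulated spread followed the trend with level, without differences between genes. These rates therefore need not hold for the data. No replicate pair differed by so little that it looked like 1 library (lowest chi-square per degree of freedom, 42.2). Replicate 3 stood apart in both groups. Pairs with shCtrl 3 were at 126 and 138, beside 42.2 for shCtrl 1 and 2. Pairs with shTFAM 3 were at 114 and 124, beside 61.1 for shTFAM 1 and 2. Figures used matplotlib 3.10.9.

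The genes and lists were chosen with earlier results of these data known. Named are all called members, 13 set members, others with a mean of at least 5 FPKM, and called genes of the other lists, with values for up to 6 of smallest p.
The results of 1 tested junction gene and 1 marker are not reported here.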

Additional observations from a re-analysis of the deposited data

How the results depend on the processing

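Alternatives were a higher or no limit on level, edgeR's own filter, other scalings, no abundance trend, DESeq2, limma, an adjusted p of 0.01 and left-out libraries. OCLN, CLDN4 and NECTIN1 kept direction and call in every one that tested them, with log2 fold changes of -2.52 to -0.88, 1.03 to 1.80 and 0.55 to 0.89. All tested rows gave 1020 higher with a mean of at least 5 FPKM, where only 6595 rows were tested. They gave 559 higher at an adjusted p of 0.01 (843 to 1332 with 1 library left out). They gave 1771 lower with totals outside mitochondrial DNA, 1677 with DESeq2 and 139 at 0.01 (305 to 733 with 1 left out). Of the junction genes, 2 were higher and 0 lower at 5 FPKM, where 16 were tested. OCLN, CLDN4 and CDH2 lie below that level, so they could not be called there. Without shCtrl 3 and shTFAM 3, 7 were higher, and 2 were at 0.01. With 1 left out, 2 to 4 were higher, the 2 being without shCtrl 2. Among partners, 0 were lower at 0.01 and 0 to 3 with 1 left out. Among the factors, 3 were higher at 5 FPKM, where SNAI2, FOXC2, TWIST2 and GRHL1 were not tested. There were 4 higher without shCtrl 3 and shTFAM 3 and at 0.01, and 4 to 5 with 1 left out. With no filter 5 were higher, and 1 was lower with no filter or edgeR's own. The cadherin sum in shTFAM was 17.8 FPKM over tested genes and 19.9 over all.

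Signs turned for CDH3, CTNNA1, CTNND1, PKP3, PKP4, F11R and TJP3, none of which passed the test. Scaled to totals outside mitochondrial DNA, log2 fold changes were -0.041 for CDH3, -0.059 for CTNNA1, -0.0097 for CTNND1, -0.098 for PKP3 and -0.076 for PKP4. Scaled to library totals they were -0.000998 for CTNNA1, -0.040 for PKP3 and -0.021 for PKP4. With limma and a pseudocount of 1 or 0.1 they were -0.0081 and -0.0082 for CTNNA1, -0.048 and -0.050 for PKP3, and -0.026 and -0.029 for PKP4. Without shCtrl 3 and shTFAM 3 they were -0.21 for CDH3, -0.071 for PKP3, 0.31 for F11R and -0.082 for TJP3, while PKP4 kept its sign at 0.10. With 1 library left out they ran from -0.093 to 0.27 for CDH3, -0.063 to 0.35 for CTNND1, -0.067 to 0.11 for PKP3, -0.0097 to 0.093 for PKP4 and -0.81 to 0.24 for F11R, and TJP3 kept its sign at 0.098 to 0.46. The cause was not tested. The median over all rows moved to -0.09 with library totals and -0.15 with totals outside mitochondrial DNA, and that of the junction genes to 0.24 and 0.18 (0.19 with limma and a pseudocount of 1). No paired analysis was possible because the titles give the groups no shared replicate numbers.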
